A study of Mus musculus with 15 samples.

Results

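The 10 genes described here are transcripts of the negative feedback arm of MAP kinase signalling: the dual-specificity phosphatase genes Dusp1, Dusp4, Dusp5, Dusp6, Dusp10 and Dusp16, the Sprouty genes Spry1, Spry2 and Spry4, and Spred1. They were chosen by name, because they are widely used as transcriptional reporters of ERK, JNK and p38 activity, and all 10 were found among the 20207 RefSeq genes of each table. Of these, 9 passed the filter of at least 1 count in every sample. Dusp5 did not pass, because it had no count in 1 control library, and it is given by its values.

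MAP kinases pass signals from growth factor receptors (ERK) and from stress (JNK and p38) to the nucleus, where they switch on genes that in turn restrain the same pathways. The dual-specificity phosphatases remove both activating phosphates from MAP kinases, and the family members differ in the kinase they prefer and in whether they act in the nucleus or the cytoplasm. Sprouty and Spred proteins act further upstream and limit the activation of RAS and RAF below receptor tyrosine kinases. Many of these transcripts are short-lived in fibroblasts, and their levels are commonly read as a record of recent signalling.

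mRNA was measured in NIH3T3 cells, an immortalized mouse embryonic fibroblast line, that carried a stably integrated DD-sfGFP. This is a superfolder green fluorescent protein joined to a destabilizing domain, an FKBP mutant that is folded while the ligand Shield-1 (S1) is bound and unfolded without it. The cells were selected by fluorescence-activated sorting for high reporter levels and kept in S1, so the control samples carried the same fusion protein in its folded state. The question was how the transcriptome responds, and when, once this single unfolded protein has formed. The control group (cont, labelled as unstressed) had 5 samples. The groups labelled unfolded DD were collected at 45 min (3 samples), 135 min (3 samples) and 405 min (4 samples) after S1 removal, which was done with a purified FKBP protein that takes up the ligand from the medium. Nothing in the labels says that samples of a group came from separate cultures, so the p-values measure the spread between these samples, which may be technical.

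Library totals ran from 6652539 counts in control replicate 3 to 30258404 in 45-min replicate 1. The samples also fell into 2 library sets, defined here from the data by how steeply log2 CPM (counts scaled to the size of each library) changed with exonic GC content. Set 2 held control replicate 2, 45-min replicate 3 and 405-min replicates 1, 2 and 4, with slopes from -0.383 to 0.031 per 10 percentage points of GC, and the 10 samples of set 1 lay at or below -0.667. All 135-min samples were in set 1 and 3 of the 4 samples at 405 min were in set 2, so the members' results are also given with the set as a covariate or within a set where this changes them. Control replicate 3 stood furthest from the rest, with a slope of -1.414. The summed level of 7 fibroblast markers was 11842 to 13813 CPM in the controls, 12693 to 13609 CPM at 45 and 135 min and 9348 to 11830 CPM at 405 min. The sums for 4 leukocyte, 3 endothelial and 4 epithelial markers did not exceed 5.19 CPM in any sample. The part of the set split and of the lower fibroblast marker sum in the results below was not tested. In bulk RNA, fewer cells making a transcript and less of it per cell cannot be told apart.

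Levels are compared between genes only as RPKM, which scales reads by transcript length and sequencing depth. In the controls, Dusp4 was the most abundant of the 10 with 14.4 RPKM ± 5.45 (SD, n = 5), followed by Spred1 with 8.59 ± 3.08, Dusp10 with 7.3 ± 2.73, Dusp1 with 6.39 ± 2.52, Spry2 with 5.9 ± 2.68 and Dusp6 with 5.69 ± 2.14. Of these neighbours in the order, Dusp10 exceeded Dusp1 in all 5 controls, Dusp4 exceeded Spred1 and Dusp1 exceeded Spry2 in 4 of 5, and the order of Spred1 and Dusp10, and of Spry2 and Dusp6, held in 3 of 5. Dusp5 (2.08 RPKM ± 2.13), Spry1 (1.55 ± 0.459), Dusp16 (0.939 ± 0.368) and Spry4 (0.429 ± 0.444) were lower. By 135 min Spry2 had moved from the fifth to the sixth place, at 1.42 RPKM ± 0.165 (n = 3), and every neighbouring pair kept its order in all 3 samples. At 405 min Dusp1 was second with 10 RPKM ± 2.36 (n = 4), and Spry1 was last with 0.409 ± 0.164.

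**Figure D1:**
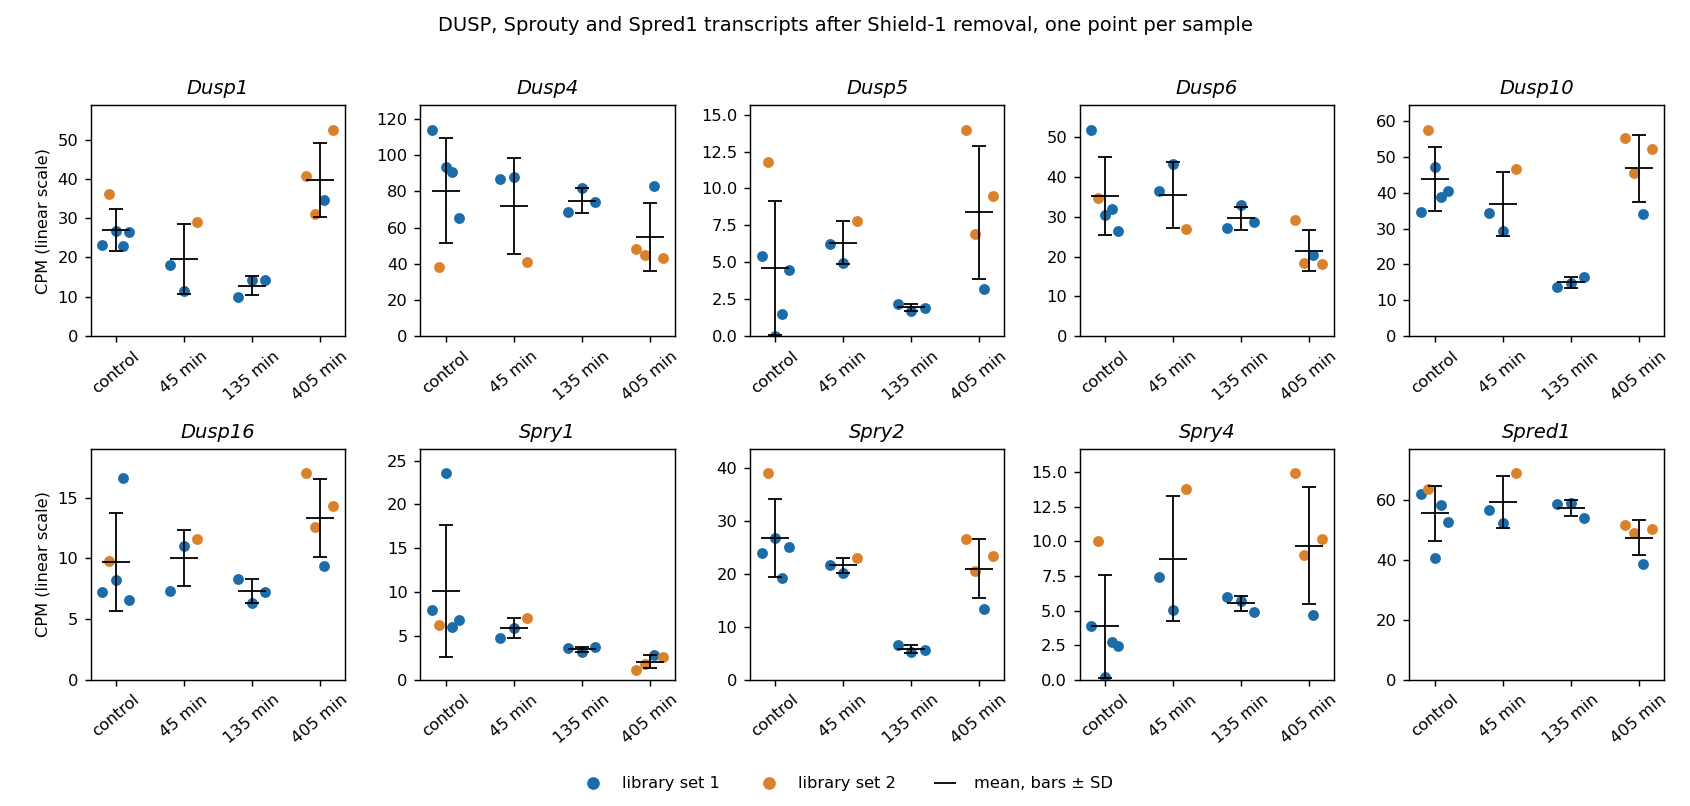
CPM (linear axes from 0) of each of the 10 genes in every sample, by group. Each point is a sample, coloured by library set, and the black marks are group means with bars of ± SD (n = 5, 3, 3 and 4). Dusp10 and Spry2 dip at 135 min, when their samples lie between 13.6 and 16.5 CPM and between 5.22 and 6.59 CPM, while Spry1 is lowest at 405 min.

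Spry2 and Dusp10 fell by 135 min and were higher again at 405 min. At 405 min 3 of the 4 samples of each lay within the range of the controls and replicate 3 lay below it. Those 3 were set 2 libraries, and for both genes they lay below control replicate 2, the only set 2 control. Spry1 and Dusp6 were lower than control at 405 min, and no tested member was called higher than control at any time in the fit of all 15 samples. At 45 min none of the 9 passed the edgeR quasi-likelihood test at an adjusted p under 0.05. None had an unadjusted p under that value in this fit either, and DESeq2 and limma also called 0 members. With the set covariate, Dusp1 (-0.58), Dusp10 (-0.32) and Spry4 (1.10) had unadjusted edgeR p of 0.0175, 0.0323 and 0.016. Their edgeR adjusted p was 0.488 and no member was called, where 0.0292% of all genes were called higher and 0.00973% lower. Across all 10276 genes at 45 min, edgeR called 0% higher and 0% lower, with 365 genes under 0.05 before adjustment, while DESeq2 called 6 and limma 0. The members' log2 fold changes at 45 min ranged from -0.76 for Spry1 to 1.14 for Spry4, with a median of -0.16 against 0.02 for all genes.

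At 135 min edgeR called 2 of 9 members lower and 0 higher, where 0.895% of all genes were called lower and 0.564% higher. Their median log2 fold change was -0.41, against -0.06 for all genes. For 4 of 9 (Dusp1, Dusp10, Spry1 and Spry2), every 135-min sample lay below every control, as did 4.75% of all tested genes. At 405 min the count was again 2 lower and 0 higher, but 13.4% of all genes were then called lower and 9.99% higher, and the members' median of -0.23 stood beside 0.00 for all genes. These shares moved with single libraries: without control replicate 2, 24.5% of genes were called higher and 23.9% lower at 405 min, and without 405-min replicate 4, 4.19% and 5.14%. With the set as a covariate, 4 of 9 members were lower at 135 min, where 4.88% of all genes were lower and 3.06% higher, and 2 of 9 at 405 min, where 6.87% were lower and 6.17% higher. Every 405-min sample lay below every control for 1 of 9 members, Spry1, and for 6.43% of all genes. The 135-min and 405-min comparisons share the control samples.

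**Figure D2:**
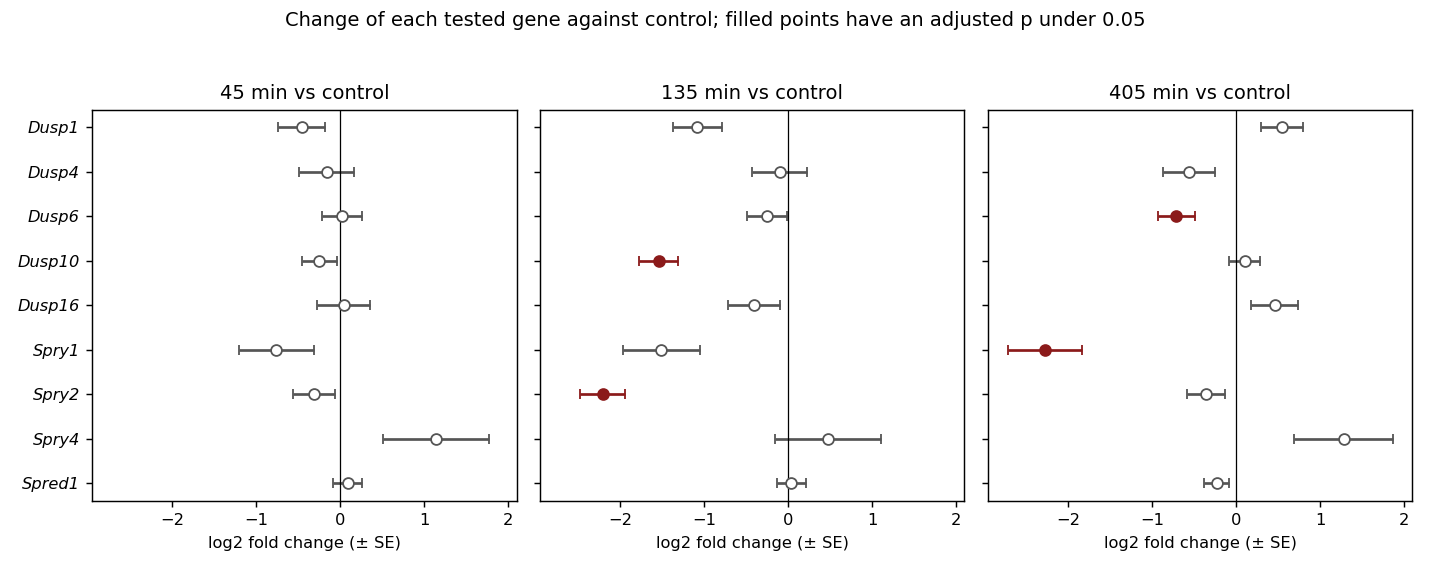
Log2 fold change (± SE, edgeR) of the 9 tested genes against control at 45, 135 and 405 min, with filled points where the adjusted p is under 0.05. The filled points are Dusp10 (-1.54) and Spry2 (-2.21) at 135 min, and Spry1 (-2.28) and Dusp6 (-0.71) at 405 min.

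Spry2 encodes a Sprouty protein that is induced by receptor tyrosine kinases and blocks their RAS-ERK output, and its gene lies at chr14:106291164-106296036 (mm9, minus strand, protein coding). The 5 controls measured 24.0, 39.0, 26.9, 19.2 and 25.2 CPM, and the 45-min samples 21.8, 20.1 and 23.0 CPM. At 135 min the values were 6.59, 5.22 and 5.54 CPM, and at 405 min 26.6, 20.5, 13.4 and 23.3 CPM. The 135-min samples were thus well below all others, with no overlap with any other group. At 405 min 3 of the 4 samples lay within the range of the controls, with replicate 3 below it. Those 3 were set 2 libraries and lay below control replicate 2, the only set 2 control. The fall at 135 min was 4.64-fold (log2 fold change -2.21, SE 0.27, edgeR adjusted p = 0.000399), and it held with library set as a covariate (-2.07) and within set 1 alone (-2.04).

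Between the times, Spry2 was lower at 135 than at 45 min (log2 fold change -1.90, SE 0.29, edgeR adjusted p = 0.00637), and higher at 405 than at 135 min (1.86, SE 0.27, edgeR adjusted p = 0.0028). The adjusted p of the first difference rose to 0.0618 without 135-min replicate 2 and to 0.0656 without replicate 3. With the set covariate the rise from 135 to 405 min was smaller, at 1.40 (edgeR adjusted p = 0.00453). Within set 1 it rested on 405-min replicate 3 alone, the lowest of that group, and was 1.20 (edgeR adjusted p = 0.131). Against control, Spry2 at 405 min was not called (-0.36, edgeR adjusted p = 0.24), but with the set covariate it was lower, at -0.67 (edgeR adjusted p = 0.0267).

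Dusp10, a phosphatase that prefers p38 and JNK over ERK, followed the same course and lies at chr1:185858340-185899515 (mm9, plus strand, protein coding). Its controls measured 34.7, 57.6, 47.2, 38.9 and 40.4 CPM, and the 45-min samples 34.4, 29.5 and 46.7 CPM. The 135-min samples fell to 13.6, 14.9 and 16.5 CPM, and those at 405 min measured 55.4, 45.6, 34.2 and 52.2 CPM. Again the 135-min samples were below every other sample. The other groups overlapped, with 405-min replicate 3 just below the lowest control. The remaining 405-min samples were set 2 libraries and lay below control replicate 2, the only set 2 control.

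The 135-min level of Dusp10 was 2.92-fold below control (log2 fold change -1.54, SE 0.23, edgeR adjusted p = 0.0021), and -1.41 with the set covariate and -1.42 within set 1. From 135 to 405 min it rose 3.12-fold (1.64, SE 0.23, edgeR adjusted p = 0.00228), or by 1.21 with the set covariate. The 405-min level did not differ detectably from control (0.10, SE 0.19, edgeR adjusted p = 0.71), and this small difference turned to -0.20 with the set covariate. The difference between 135 and 45 min (-1.30, SE 0.24, edgeR adjusted p = 0.031) was less secure. Leaving out any 1 of 7 libraries took it past the threshold: each of the 135-min samples, 45-min replicates 1 and 3, and 405-min replicates 2 and 4. Its log2 difference then lay between -1.37 and -1.09. For reference, 0.243% of all genes were called lower and 0.185% higher between 45 and 135 min, and 2.24% higher and 2.82% lower between 135 and 405 min. Of the 9 members, 2 were lower in the first of these comparisons and 3 higher in the second, and the same 3 with the set covariate, where 1.66% of all genes were higher.

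Dusp1 was the third gene to rise between 135 and 405 min. It encodes a nuclear phosphatase that is made within minutes of mitogen or stress signals and acts on p38, JNK and ERK, at chr17:26642537-26645417 (mm9, minus strand, protein coding). Controls measured 23.3, 36.1, 26.7, 22.8 and 26.5 CPM, the 45-min samples 18.2, 11.5 and 29.1 CPM, the 135-min samples 10.01, 14.2 and 14.3 CPM, and the 405-min samples 40.9, 31.0, 34.7 and 52.5 CPM. Every 135-min sample was below every control, and every 405-min sample was above every 135-min sample.

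The 3.09-fold rise of Dusp1 from 135 to 405 min passed the test (log2 fold change 1.63, SE 0.30, edgeR adjusted p = 0.0107), also with the set covariate (1.20, edgeR adjusted p = 0.0185). It lost the call when any 1 of the 135-min samples was left out, with log2 differences from 1.48 to 1.71 and adjusted p from 0.0528 to 0.072. The lower level at 135 min than in control did not pass in edgeR (-1.08, SE 0.29, adjusted p = 0.0953). It passed with the set covariate (-0.94, edgeR adjusted p = 0.0174), within set 1 (-0.94, edgeR adjusted p = 0.0369), without 45-min replicate 3 (-1.08, edgeR adjusted p = 0.0467) and in DESeq2 (adjusted p = 0.00801). At 405 min Dusp1 was 0.55 log2 units from control (edgeR adjusted p = 0.112). Without control replicate 2, its highest control, the value was 0.68 and passed (edgeR adjusted p = 0.0378), and with the set covariate it was 0.26.

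The promoters of these 3 genes are shown because their transcripts shared the low point at 135 min. They are the 250 bases before the RefSeq start site (GRCm38.p6, read 5′ to 3′ on the gene's strand), at chr14:105896820-105897069 (minus strand) for Spry2, chr1:184034131-184034380 (plus strand) for Dusp10 and chr17:26508473-26508722 (minus strand) for Dusp1. Capitals mark a cAMP response element, TGACGTCA, or its core TGACG on either strand.
Spry2: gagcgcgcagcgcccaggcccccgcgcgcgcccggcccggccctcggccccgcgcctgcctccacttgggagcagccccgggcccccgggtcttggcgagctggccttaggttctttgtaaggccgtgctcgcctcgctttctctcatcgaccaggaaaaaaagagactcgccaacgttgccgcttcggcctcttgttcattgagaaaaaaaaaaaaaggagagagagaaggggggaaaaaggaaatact
Dusp10: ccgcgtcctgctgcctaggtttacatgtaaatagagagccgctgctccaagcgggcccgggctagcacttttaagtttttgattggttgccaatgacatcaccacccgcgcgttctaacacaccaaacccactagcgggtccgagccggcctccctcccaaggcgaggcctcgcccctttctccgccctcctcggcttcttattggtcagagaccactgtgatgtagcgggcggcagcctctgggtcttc
Dusp1: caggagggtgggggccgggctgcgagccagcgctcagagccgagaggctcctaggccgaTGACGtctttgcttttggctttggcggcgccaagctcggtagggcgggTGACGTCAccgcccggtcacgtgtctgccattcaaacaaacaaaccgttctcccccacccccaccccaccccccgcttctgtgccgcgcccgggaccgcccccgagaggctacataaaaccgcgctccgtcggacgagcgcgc

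The Dusp1 window held TGACGTCA, starting at position -143 from the start site, which 1.55% of the 32851 RefSeq promoters of the same length also held, and a separate TGACG at -191 (17.8% of promoters held at least 1 TGACG). The element is its own reverse complement, so it also counts as TGACG at -143 and -140. Neither the Spry2 nor the Dusp10 window held TGACG. Of the other motifs searched on both strands, the AP-1 site TGANTCA (6.75% of promoters), the ETS site CCGGAA (12%) and the TATA box TATAAA (12.4%) were in none of the 3 windows, nor was the TEAD site CATTCC (12.6%) or the CArG box (1.47%). The SP1 site GGGCGG (32.7%) was at 2 positions for Dusp10 and 3 for Dusp1 and absent for Spry2. A match of letters, or its absence from this window, is no measurement of binding. Of the 10 genes, 8 matched an entry of the promoter table, and the CArG box, the site of serum response factor, was found in Dusp5 alone, at positions -82 and -72.

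The remaining Sprouty and Spred genes did not share the course of Spry2. Spry1, a second inhibitor of receptor tyrosine kinase signalling, at chr3:37538872-37543521 (mm9, plus strand, protein coding), was lowest at 405 min. Controls measured 7.94, 6.26, 23.5, 5.98 and 6.74 CPM, the 45-min samples 4.72, 5.89 and 6.98 CPM, the 135-min samples 3.60, 3.13 and 3.68 CPM and the 405-min samples 1.11, 1.77, 2.80 and 2.53 CPM. The 135-min and 405-min samples were all below every control, and control replicate 3 was far above the other controls. These values rest on few reads, 16 to 46 counts per sample at 405 min.

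At 405 min Spry1 was 4.85-fold below control (log2 fold change -2.28, SE 0.44, edgeR adjusted p = 0.00328). Without control replicate 3 the difference was -1.72 (edgeR adjusted p = 0.00116). Within set 2, where control replicate 2 was the only control, it was -1.76. Within set 1 without control replicate 3, where 405-min replicate 3 stood alone, it was -1.31. At 135 min the difference was -1.51 and did not pass (SE 0.46, edgeR adjusted p = 0.162). It was -0.95 without control replicate 3 (edgeR adjusted p = 0.149), and passed narrowly with the set covariate (-1.55, edgeR adjusted p = 0.0472).

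Spry4, a Sprouty gene commonly read as a marker of ERK output, at chr18:38745919-38760922 (mm9, minus strand, protein coding), separated by library set. Its controls measured 3.86, 10.1, 0.174, 2.72 and 2.45 CPM, the 45-min samples 7.44, 5.04 and 13.8 CPM, the 135-min samples 5.98, 5.69 and 4.89 CPM and the 405-min samples 14.9, 9.02, 4.64 and 10.2 CPM. The 5 set 2 libraries lay between 9.02 and 14.9 CPM and the 10 set 1 libraries between 0.174 and 7.44 CPM. Control replicate 3 rests on 1 count.

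The log2 difference of Spry4 from control at 405 min was 1.28 (SE 0.59, edgeR adjusted p = 0.113). It was 2.0 without control replicate 2, the only set 2 control, and passed there (edgeR adjusted p = 0.00647), and was 0.60 with the set covariate and 0.18 within set 2. Between 135 and 405 min it was 0.82 (edgeR adjusted p = 0.428) and turned to -0.43 with the set covariate. At 135 min against control it was 0.47 (SE 0.63, edgeR adjusted p = 0.836). This rose to 1.03 with the set covariate (edgeR adjusted p = 0.13) and to 1.19 within set 1 (edgeR adjusted p = 0.189). Neither passed, although every 135-min sample lay above every set 1 control.

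Spred1, which recruits neurofibromin to the membrane to switch RAS off, at chr2:116947186-117005072 (mm9, plus strand, protein coding), varied least. Its group means were 55.3 CPM ± 9.24 (SD, n = 5) in control, 59.1 ± 8.6 (n = 3) at 45 min, 57.1 ± 2.72 (n = 3) at 135 min and 47.3 ± 5.89 (n = 4) at 405 min. No comparison called it in edgeR over all 15 samples, with log2 differences from control of 0.04 (SE 0.17) at 135 min and -0.23 (SE 0.15) at 405 min. With the set covariate these were 0.11 and -0.41 (edgeR adjusted p = 0.61 and 0.0636). Every 405-min sample lay below every 135-min sample. That log2 difference was -0.27, or -0.52 with the set covariate, and did not pass (edgeR adjusted p = 0.308 and 0.0996).

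Among the phosphatases, Dusp6, the cytoplasmic phosphatase selective for ERK, at chr10:98725865-98730122 (mm9, plus strand, protein coding), was lower at 405 min. Controls measured 51.9, 34.7, 30.5, 32.0 and 26.5 CPM, the 45-min samples 36.5, 43.4 and 26.9 CPM, the 135-min samples 27.1, 32.9 and 28.8 CPM and the 405-min samples 29.1, 18.3, 20.3 and 18.3 CPM. Of the 405-min samples, 3 were below all controls and replicate 1 was within their range.

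The fall of Dusp6 at 405 min was 1.64-fold (log2 fold change -0.71, SE 0.22, edgeR adjusted p = 0.0343). It lost the call with the set covariate (-0.63, edgeR adjusted p = 0.0984), and when any of 4 libraries was left out. These were control replicate 1, its highest library (-0.53), control replicate 4 (-0.74) and 405-min replicates 2 and 4 (-0.64 each), with edgeR adjusted p from 0.0556 to 0.108. The direction was the same within set 1 (-0.81), where 405-min replicate 3 stood alone, and within set 2 (-0.66), where control replicate 2 was the only control. At 135 min Dusp6 differed from control by -0.25 (SE 0.24, edgeR adjusted p = 0.737).

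Dusp4, a nuclear phosphatase for ERK and JNK and the most abundant of the 10, at chr8:35870664-35882948 (mm9, plus strand, protein coding), separated by library set in the opposite sense to Spry4. Its controls measured 114, 38.4, 93.4, 91.0 and 65.2 CPM, the 45-min samples 86.7, 87.9 and 41.2 CPM, the 135-min samples 68.8, 82.2 and 73.9 CPM and the 405-min samples 48.0, 44.9, 82.9 and 42.9 CPM. The set 2 libraries were the 5 lowest, between 38.4 and 48.0 CPM, and the set 1 libraries lay between 65.2 and 114 CPM. At 405 min the log2 difference from control was -0.56 (SE 0.31, edgeR adjusted p = 0.176). It passed without control replicate 2 (-0.74, edgeR adjusted p = 0.0311) and was 0.05 with the set covariate. The difference of 405 from 135 min likewise went from -0.46 to 0.29, and at 135 min against control Dusp4 stood at -0.10 (SE 0.33).

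Dusp16, a phosphatase for JNK and p38 that moves between cytoplasm and nucleus, at chr6:134665491-134742646 (mm9, minus strand, protein coding), was called in no comparison in the fit of all 15 samples. Controls measured 7.21, 9.77, 8.19, 16.6 and 6.58 CPM, the 45-min samples 7.34, 11.04 and 11.6 CPM, the 135-min samples 8.30, 6.32 and 7.19 CPM and the 405-min samples 17.0, 12.6, 9.37 and 14.3 CPM. Both later groups overlapped the controls, with log2 differences of -0.41 (SE 0.31) at 135 min and 0.46 (SE 0.28) at 405 min. Every 405-min sample was above every 135-min sample, a log2 difference of 0.88 that did not pass (SE 0.33, edgeR adjusted p = 0.115). It passed in a fit of those groups alone (0.87, edgeR adjusted p = 0.0284) and was 0.61 with the set covariate. Dusp5, a nuclear phosphatase specific for ERK, at chr19:53603808-53615812 (mm9, plus strand, protein coding), measured 5.39, 11.8, 0, 1.5 and 4.46 CPM in the controls. Its 45-min samples held 6.25, 4.93 and 7.81 CPM, its 135-min samples 2.20, 1.72 and 1.93 CPM and its 405-min samples 13.96, 6.92, 3.19 and 9.46 CPM. The 135-min samples were below all 45-min and 405-min samples but inside the range of the controls, where the 0 of control replicate 3 allows up to 0.523 CPM (3 counts, counting error only).

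The transcripts most like Spry2 were found by Pearson's r of log2 CPM over the 15 samples, after the mean of each library set was removed. Of 10275 other genes, Klf10 came first (r = 0.952), a zinc finger factor induced by TGF-beta. It was followed by Sertad4 (0.947), Ctgf (0.941), a matricellular protein and target of YAP and TGF-beta, Dusp10 (0.938) and Id2 (0.931), an inhibitor of basic helix-loop-helix factors. Dusp10 was thus at rank 4, whereas Spry1 (0.575) was at rank 764, Dusp1 (0.531) at rank 979 and Spry4 (-0.448) at rank 8862. These correlations share libraries and time points and are a description over 15 samples.

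A low point at 135 min in these genes follows from the choice by correlation, so their levels are given as a description with no test. Klf10 averaged 67.5 CPM in control, 46.2 at 45 min, 17.7 at 135 min and 45.7 at 405 min. Sertad4 averaged 81, 59.9, 20.1 and 33.7 CPM, and Id2 103, 51.9, 16.5 and 39.7 CPM. In mean CPM, Sertad4 and Id2 thus remained further below their control means at 405 min than Dusp10, which averaged 43.8 CPM in control and 46.9 at 405 min.

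**Figure D3:**
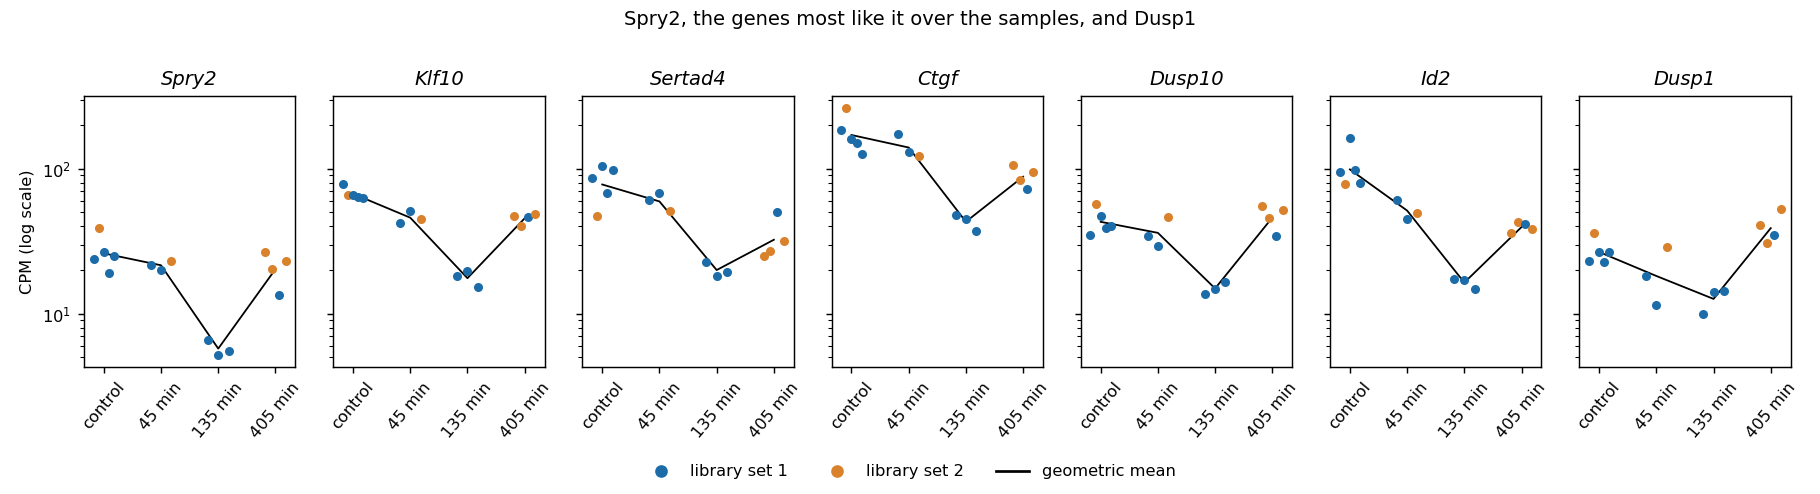
CPM (log axis) in every sample for Spry2, for the 5 genes most correlated with it (Klf10, Sertad4, Ctgf, Dusp10 and Id2), and for Dusp1. Points are samples coloured by library set and lines join the geometric means of the groups, all of which are lowest at 135 min.

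Other genes of the pathway were taken from 7 lists: further phosphatase and Spred genes, other ERK-driven genes, p38 and JNK outputs, MAPK core components, growth factor receptors, stress MAP3K genes with their scaffolds, and atypical DUSP genes. Of 111 genes listed, 109 were found by name and 92 were tested. At 135 min 1 was higher and 6 lower by edgeR, with a median log2 fold change of -0.03, and at 405 min 8 were higher and 17 lower, with a median of 0.14. Of all genes, 0.564% were higher and 0.895% lower at 135 min and 9.99% and 13.4% at 405 min, with medians of -0.06 and -0.001. With the set covariate 6 were higher and 12 lower at 135 min, where 3.06% and 4.88% of all genes were. At 405 min 5 were higher and 19 lower with it, where 6.17% and 6.87% of all genes were, and 7 calls were lost and 6 gained. Among the 5 tested further feedback genes (Dusp7, Dusp8, Dusp9, Spred2 and Spred3), edgeR, DESeq2 and limma called 0 in any comparison of all samples, and 0 had an unadjusted edgeR p under 0.05. With the set covariate Dusp7, a cytoplasmic ERK phosphatase, was lower at 405 min (-0.62, edgeR adjusted p = 0.0146).

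Of the ERK-driven genes at 135 min, 3 of 23 were lower and 1 higher. The immediate-early transcription factor gene Egr1 was at -2.70 (SE 0.57, edgeR adjusted p = 0.031), from a control range of 19.3 to 120 CPM to 6.71 to 9.56 CPM. Myc, a driver of growth, was at -1.55 (SE 0.23, edgeR adjusted p = 0.0021), and Errfi1, a feedback inhibitor of the EGF receptor, was at -1.28 (SE 0.27, edgeR adjusted p = 0.0271). Ier3, an early response gene with roles in cell survival, went the other way, at 2.09 (SE 0.44, edgeR adjusted p = 0.0311), and its samples rose from 0.697 to 11.2 CPM in control to 20.6 to 30.3 CPM. With the set covariate these 4 genes kept their calls, at -2.30 for Egr1, -1.52 for Myc, -1.13 for Errfi1 and 2.24 for Ier3. In that fit 3 of 23 were higher and 4 lower, where 3.06% of all genes were higher and 4.88% lower. The calls gained were Lif (1.58, edgeR adjusted p = 0.0354), Phlda1 (0.69, edgeR adjusted p = 0.0297) and Ier2 (-0.76, edgeR adjusted p = 0.0497).

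At 405 min 2 ERK-driven genes were higher and 7 lower, or 1 and 10 with the set covariate. Ier3 stood at 2.54 (edgeR adjusted p = 0.00141) and Myc at -1.15 (edgeR adjusted p = 0.00191), and with the set covariate at 2.32 and -1.25. Egr1 (-0.90, edgeR adjusted p = 0.159) and Errfi1 (-0.37, edgeR adjusted p = 0.237) did not pass over all samples. Both were called lower with the set covariate, Egr1 at -1.40 (edgeR adjusted p = 0.0127) and Errfi1 at -0.65 (edgeR adjusted p = 0.0265).

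Of 11 genes listed as p38 and JNK outputs, Ctgf was lower at 135 min (-2.02, edgeR adjusted p = 0.00036) and at 405 min (-0.99, edgeR adjusted p = 0.00488). Under the set covariate it stood at -1.93 and -1.16. Ctgf is also a target of YAP and TGF-beta, and which pathway moved the genes of this list was not tested. Gadd45a, a stress and DNA damage gene that the authors count among p53 targets, was higher at 405 min (1.51, SE 0.29, edgeR adjusted p = 0.00302). It stood at 1.77 with the set covariate. At 135 min that covariate gave 2 higher, Jun (0.67, edgeR adjusted p = 0.0119) and Gadd45a (1.17, edgeR adjusted p = 0.0128). It gave 3 lower, Ctgf, Rhob (-1.10, edgeR adjusted p = 0.0103) and Cyr61 (-1.10, edgeR adjusted p = 0.0226). Of the 8 growth factor receptors 2 were lower at 135 min and 5 at 405 min, and with the set covariate 3 and 5. Pdgfrb was at -0.92 (edgeR adjusted p = 0.0418) and then -0.70 (edgeR adjusted p = 0.0204), or -0.81 and -0.99 with the set covariate. Egfr was at 0.07 at 135 min and at -1.09 by 405 min (SE 0.19, edgeR adjusted p = 0.00192), or -1.07 with the set covariate.

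Of the 28 core components none was called at 135 min by edgeR without the set covariate (2 at an unadjusted p under 0.05, 1 by DESeq2 and 0 by limma). At 405 min 2 were higher and 2 lower. Of 10 stress MAP3K genes, 3 were called higher at 405 min, and 1 with the set covariate, where Mapk8ip1 (edgeR adjusted p = 0.0921) and Mapk8ip3 (edgeR adjusted p = 0.0628) did not pass. Of 7 atypical DUSP genes 2 were called lower at 405 min, and 0 with the set covariate (edgeR adjusted p = 0.312 for Dusp12 and 0.127 for Dusp14). The 405-min counts stand beside the 9.99% of all genes called higher and 13.4% lower, or 6.17% and 6.87% with the set covariate. At 135 min that covariate gave Araf (-0.78, edgeR adjusted p = 0.031) and Dusp14 (-0.79, edgeR adjusted p = 0.0235) as lower. It gave Map3k14 as higher (1.08, edgeR adjusted p = 0.0368), where 3.06% of all genes were higher and 4.88% lower.

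**Figure D4:**
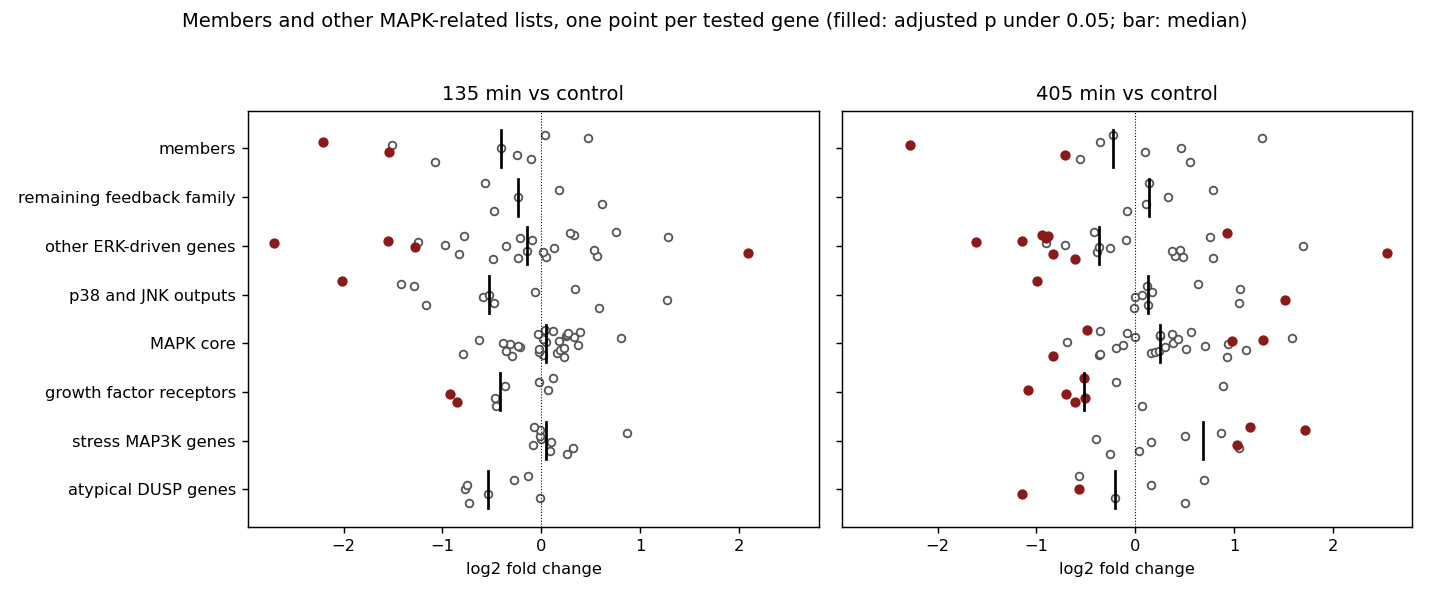
Log2 fold change against control at 135 and 405 min for each tested gene, with the members in the top row and the 7 other lists below. Filled points have an edgeR adjusted p under 0.05 and vertical bars are list medians, which for the members are -0.41 and -0.23.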

How the data were processed

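mRNA-seq libraries of 15 samples (5 control, 3 at 45 min, 3 at 135 min, 4 at 405 min) were analysed. Per the methods, the authors aligned reads to mm9 and quantified RefSeq genes on the DNAnexus platform; the aligner is not given in the sources used here. The labels name 1 library kit, whereas the methods describe a bead-based protocol and a NuGEN kit without saying which samples had which. The read counts deposited by the authors are expected counts and were rounded to whole numbers. The RPKM values deposited by the authors were used for levels between genes and in 1 alternative, and the other deposited columns (a Z score and an RMS-scaled RPKM) were not used. Library totals of 6652539 to 30258404 set the counting precision.

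The 10276 genes that no library lacked were fitted in edgeR 4.0.16 (R 4.3.3), with TMM factors and a quasi-likelihood model of group across all samples. Benjamini-Hochberg adjustment ran over these genes, and calls were made under 0.05. CPM values use TMM-scaled totals. Alternatives used DESeq2 1.42.0, limma 3.58.1 on log2(RPKM + 0.1), other normalizations and filters, the library set, the replicate number and single libraries left out. The script was tested on simulated data. Library sets were split at the widest gap in GC slope, using NCBIM37 with GENCODE vM1 exons (95.9% of tested genes), and the gap that sets control replicate 3 apart is nearly as wide. Named genes are the 10 members, among the called genes of each list at most the 5 of largest change at 135 or 405 min in each direction, and the 5 genes most correlated with the member of lowest p at 135 min. The members and lists were chosen with earlier results of these data known.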

Additional observations from a re-analysis of the deposited data

Results flagged for a closer look

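In 3 groups of 4 or 5 samples, a single library stood apart from the others by Dixon's ratio of its gap to the group's range. Of the 20 such groups examined, chance marks about 1 in 20. Dusp1 was highest in control replicate 2, at 36.07 CPM against at most 26.7 CPM in the other controls. Dusp4 was highest in 405-min replicate 3, the only set 1 library of that group, at 82.88 CPM against at most 48.0 CPM. Spry1 was highest in control replicate 3, the shallowest library, at 23.53 CPM against at most 7.94 CPM.

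The effect of S1 removal differed between times for 3 genes, each by a test of the difference itself in edgeR. Between 45 and 135 min the log2 difference was -1.30 for Dusp10 and -1.90 for Spry2. Between 135 and 405 min it was 1.63 for Dusp1, 1.64 for Dusp10 and 1.86 for Spry2. Every 135-min sample came from library set 1, so the last 3 values within that set rest on 405-min replicate 3 alone, and the part of the set split in them was not tested beyond the values with the set as a covariate (1.20, 1.21 and 1.40).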

How the results depend on the processing

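The falls of Spry2 and Dusp10 at 135 min kept their direction in every setting that had 135-min samples (library set 2 had none), with Spry2 called in each (adjusted p at most 0.0166) and Dusp10 not called by limma on RPKM (-1.26, adjusted p = 0.0936) or with the replicate block (-1.57, adjusted p = 0.0517). Of the fold changes followed through the settings, 736 comparisons with an alternative kept direction and call, 46 lost the call, 16 gained it and 25 changed direction. In sparse genes (Spry1, Spry4, Dusp5) and in control replicate 3, depth limits what can be seen. The causes of these differences were not tested.

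Members called lower at 135 min numbered 2, and 4 by DESeq2, with the set covariate and in set 1 without control replicate 3 (chosen after seeing the data), but 1 by limma on RPKM. The share of all genes called lower moved too, from 0.895% to 2.62%, 4.88% and 9.53% in those 3 settings. Within set 1, 3 members (Dusp1, Dusp10 and Spry2) and 3.57% of genes were lower. At 405 min 2 were lower, and 1 in the fit of the compared groups only, with library totals only, by limma on RPKM, without a filter, in set 1 without control replicate 3 (Spred1, with 405-min replicate 3 as the lone sample, assumed to vary like the others), with the replicate block and library set together and within set 2, and 0 within set 1. Leaving out 1 library gave 1 to 3 lower and 0 to 2 higher at 405 min, the 2 without control replicate 2, and 2 also without control replicates 2 and 3. Lower at 135 than at 45 min were 2, and 0 by limma, 1 without a filter and 1 within set 1. Of all genes, 0.243% were lower there, and 0.0487%, 0.0867% and 0.195% in those 3 settings. With 1 library left out, 0 to 2 members were lower. Higher at 405 than at 135 min were 3, where 2.24% of all genes were higher, and 0 by limma, where 0.0584% were. Within set 1 that comparison rests on 405-min replicate 3 alone, as does that of 405 min with control. Within set 2 the comparison of 405 min with control rests on control replicate 2 as the only control.

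Departures from the group means showed no pairing by replicate number. They correlated on average at -0.11 over 19 same-number pairs against 0.028 over 64 others, and 2 samples matched their own number best. The departures also followed the library set, at 0.157 over 42 same-set pairs against -0.168 over 41 others. The set was not removed here, so this check cannot exclude a pairing. With the replicate block, 1 member was lower at 135 min (Spry2) and 1 at 405 min (Spry1), and 0 differed between 45 and 135 or 135 and 405 min. Of all genes, that block left 0.195% lower at 135 min and 4.54% lower at 405 min. Between 45 and 135 min it left 0.00973% higher and 0.0389% lower, and between 135 and 405 min 0.0487% and 0.0973%.

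Of the list genes, 1 was higher at 135 min, and 0 with compared groups only, library totals, limma or the replicate block, 3 within set 1, with block and set together or without controls 2 and 3, 4 by DESeq2, 6 with the set covariate and 11 in set 1 without control 3. Those lower at 135 min were 6, and 2 with compared groups only, limma or the replicate block, 10 with block and set, 12 by DESeq2 or with the set covariate and 14 in set 1 without control 3. Higher at 405 min were 8, and 3 within set 1, 4 within set 2, with the replicate block or in set 1 without control 3, 5 with compared groups only, limma or the set covariate and 30 without controls 2 and 3. Lower at 405 min were 17, and 2 by limma, 3 within set 1, 5 with compared groups only, 6 with the replicate block, 9 with library totals or within set 2, and 11 without a filter or in set 1 without control 3. Leaving out 1 library gave 0 to 2 and 2 to 7 at 135 min, and 5 to 24 and 10 to 18 at 405 min, the 24 and 18 without control replicate 2. The shares of all genes moved too. At 405 min 24.5% were higher and 23.9% lower without control replicate 2, and 24.2% higher without controls 2 and 3. In set 1 without control 3, 8.21% were higher and 9.53% lower at 135 min.

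Directions turned only for differences that did not pass. Against control at 135 min, limma gave Dusp4 0.22, Dusp6 0.02 and Dusp16 0.01, Spred1 was -0.01 in set 1 without control 3 and without controls 2 and 3, and leaving out 1 library moved Dusp4 from -0.28 to 0.06 and Spred1 from -0.05 to 0.10. Spry1 at 45 min was 0.16 within set 2. At 405 min Dusp4 was 0.05 with the set covariate and 0.25 within set 2. Dusp10 was -0.20 with the set covariate, -0.22 with block and set, -0.24 within set 1, -0.16 within set 2 and -0.16 in set 1 without control 3, and Dusp16 was -0.05 within set 1 and -0.12 without control 3 there. Between 135 and 405 min Dusp4 was 0.29 with the set covariate, 0.33 with block and set and 0.13 in set 1 with or without control 3, and Spry4 was -0.43, -0.44 and -0.26.

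Over all genes, 150 were called at 135 min, 430 by DESeq2 and 52 by limma, and 2409, 3410 and 864 at 405 min. With 1 library left out, the calls at 405 min ran from 417 higher and 552 lower (without 405-min replicate 1), or 431 and 528 (without replicate 4), to 2517 and 2461 (without control replicate 2). The calls at 135 min ran from 21 and 22 (without 135-min replicate 1) to 115 and 182 (without control replicate 2), and were 314 and 501 with the set covariate. Limma on RPKM, with no composition factor, placed the median gene at 0.231 at 135 min and 0.183 at 405 min, where it called 464 higher and 400 lower against 1027 and 1382. Library totals placed it at 0.114 at 405 min against control and 0.175 against 135 min, where 325 were higher and 193 lower against 230 and 290.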
